A study of Mus musculus with 48 samples.

Results

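The 77 genes described here were lower in mouse embryonic stem cells (mESCs) that lacked NRDE2 and in mESCs depleted of CCDC174, and were not lower to the same limit in mESCs that lacked MTREX. They were selected on the measured values themselves. For each contrast, d was the log2 ratio of the mean deposited CPM (reads of a gene scaled to the size of its library) of each group after adding 0.25. A member had d below -0.7 in all 3 selecting contrasts (Nrde2KO against Nrde2WT, Nrde2KO_noCHX against Nrde2WT_noCHX, Ccdc174dTAG_noCHX against Ccdc174WT_noCHX), d above -0.7 in MtrexKO against MtrexWT, and a mean of at least 2 CPM in Nrde2WT. Of 55335 genes in the table, 11651 reached that mean, and 678 of these were below the limit in Nrde2KO. The Nrde2KO_noCHX limit left 494, the Ccdc174dTAG_noCHX limit left 213 and the MtrexKO limit left 82, of which 5 (Ap3d1, Gng3, Msln, Trh and Unc13d) are left out by name in the rule. The other 131 genes of the 213 were at or below the limit in MtrexKO. All 77 members are annotated as protein coding, and they lie on 19 chromosomes.

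The study asked which RNAs depend on NRDE2 and its partner proteins in mESCs. It measured RNA from rRNA-depleted, stranded libraries in 14 groups (28 libraries) and ribosome-protected fragments (Ribo-seq) in 4 libraries, with 2 replicates in each group. The study also mapped the RNA bound by NRDE2, CCDC174 and other proteins by cross-linking (BCLIP-seq). Those libraries were not used here. Nrde2KO cells received 4-hydroxytamoxifen (4OHT, 100 nM for 4 days) so that Cre recombinase deleted part of Nrde2, and Nrde2WT is the same conditional line without 4OHT. MtrexKO cells received 100 nM 4OHT for 3 days, and MtrexWT is their uninduced conditional line. Nrde2d200 and Nrde2D174R carry homozygous changes of the endogenous gene: a deletion of the N-terminal part that binds partner proteins, and an amino acid change that weakens binding to MTREX. In Ccdc174dTAG_noCHX the CCDC174 protein, fused to the FKBP12F36V degron (dTAG), was degraded by 500 nM dTAG-13 for 24 hours, and Ccdc174WT_noCHX carries the same fusion without dTAG-13. Nrde2WT_noCHX and Nrde2KO_noCHX are further libraries of the Nrde2 line, the former without 4OHT and the latter with 100 nM 4OHT for 4 days. Libraries without CHX are called untreated below, whether or not they received 4OHT or dTAG-13. The groups ending in _CHX (Nrde2WT_CHX, Nrde2KO_CHX, Ccdc174WT_CHX, Ccdc174dTAG_CHX) had the same genotypes and also received cycloheximide (CHX, 0.1 mg/ml for 4 hours), which stops translation. Ribo_Nrde2KO and Ribo_Nrde2WT are the Ribo-seq groups of the Nrde2 line, with the same 4OHT treatment and none. All groups were edited derivatives of mESC lines that carry inducible Cre. Each wild type was the uninduced parent, so effects of 4OHT or dTAG-13 alone, or of a single clone, cannot be told apart from the loss of the protein.

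NRDE2 is a conserved nuclear protein that binds U1 snRNA together with CCDC174, and U1 snRNA pairs with the 5' splice site at the start of an intron. MTREX is the RNA helicase that feeds nuclear RNAs to the exosome, and it binds NRDE2. An mRNA that keeps an intron or uses a wrong splice site often carries a premature stop codon, and such mRNAs are degraded by nonsense-mediated decay, a pathway that needs translation and is blocked by CHX.

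The libraries held between 28683644 and 36272309 reads in genes for RNA-seq and between 3475051 and 5035940 for Ribo-seq. Levels are given below as normalised CPM, the deposited CPM divided by a scaling factor for each library, with the untreated, the CHX and the Ribo-seq libraries scaled apart; ratios of CHX to no CHX use factors from all 28 RNA-seq libraries together. Nrde2 itself stood at 40.0 and 38.6 normalised CPM in Nrde2WT and at 18.2 and 19.4 in Nrde2KO. It stood at 51.1 and 49.9 in Nrde2WT_noCHX and at 19.0 and 18.7 in Nrde2KO_noCHX, so both untreated knockouts were below both of their controls. In Ribo-seq it stood at 12.2 and 14.2 in Ribo_Nrde2WT and at 2.33 and 3.24 in Ribo_Nrde2KO. With CHX it stood at 271 and 249.9 in Nrde2WT_CHX and at 283 and 271 in the libraries labelled Nrde2KO_CHX, which were not below their controls. The reason was not tested, so that label rests on the deposited description. Other values in the same libraries differed from Nrde2WT_CHX: Cdk2, which the study names as an NRDE2 target, stood at 103 and 112 in Nrde2WT_CHX and at 58.6 and 60.3 in Nrde2KO_CHX. Mtrex stood at 114 and 107 in MtrexWT and at 43.4 and 39.5 in MtrexKO. Ccdc174 RNA was not lower after dTAG-13 (27.2 and 27.3 in Ccdc174WT_noCHX, 33.9 and 36.6 in Ccdc174dTAG_noCHX), and since dTAG-13 degrades the protein, RNA does not check that depletion.

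The cells expressed the markers of naive mESCs in every library. The 10 naive markers (among them Pou5f1, Nanog, Sox2 and Esrrb) were all above 0 and summed to between 4360 and 6290 normalised CPM in the untreated libraries, 3600 and 4680 in the CHX libraries and 2800 and 3360 in Ribo-seq. Their sum was lower in MtrexKO (6170 and 6290 in MtrexWT, 4720 and 5510 in MtrexKO) and in each set labelled Nrde2KO: 5650 and 5840 in Nrde2WT against 4360 and 4650 in Nrde2KO, 5860 and 5680 in Nrde2WT_noCHX against 5080 and 5190 in Nrde2KO_noCHX, 4680 and 4660 in Nrde2WT_CHX against 4160 and 4050 in Nrde2KO_CHX, and 3300 and 3360 in Ribo_Nrde2WT against 2920 and 2800 in Ribo_Nrde2KO. The 8 fibroblast or feeder markers summed to at most 6.99 in the untreated libraries, 8.34 in the CHX libraries and 15.4 in Ribo-seq, where they stood at 7.15 and 7.58 in Ribo_Nrde2WT and at 15.4 and 13.3 in Ribo_Nrde2KO. Of these markers, Col1a1 stood at 0.910 and 0.931 in Ribo_Nrde2WT and at 6.27 and 6.09 in Ribo_Nrde2KO. Markers of 2C-like cells, a rare state of mESCs that resembles the 2-cell embryo, moved with some of the groups, and 9 of the 10 listed were found in the table. Their summed level was 3.41 and 2.20 in Nrde2WT and 31.3 and 21.7 in Nrde2KO, with Zscan4d the most abundant in both Nrde2KO libraries. It was 6.60 and 6.59 in Nrde2WT_noCHX and 92.0 and 87.5 in Nrde2KO_noCHX. In MtrexWT it was 14.4 and 4.57, and in MtrexKO 268 and 97.0, so the MtrexKO replicates stood apart from each other. With CHX it was 5.71 and 5.70 in Nrde2WT_CHX against 59.2 and 53.6 in Nrde2KO_CHX. The Ccdc174 line gave 2.99 and 5.36 in Ccdc174WT_noCHX, 2.94 and 7.69 in Ccdc174dTAG_noCHX, 2.25 and 4.27 in Ccdc174WT_CHX, and 2.02 and 5.09 in Ccdc174dTAG_CHX, so its groups overlapped. Ribo-seq gave 0.130 and 0.133 in Ribo_Nrde2WT, where 8 of the 9 were at 0, and 0.716 and 0.907 in Ribo_Nrde2KO, where 6 were at 0. Trophectoderm and neuroectoderm markers also moved in MtrexKO. The 8 trophectoderm markers summed to 84.2 and 117 in MtrexWT and to 469 and 490 in MtrexKO, with the epithelial keratin Krt18 the most abundant in both MtrexKO libraries. The 6 neuroectoderm markers summed to 63.5 and 56.4 in MtrexWT and to 142 and 123 in MtrexKO, with Nes on top. The part of these states in the members' levels was not tested. In bulk RNA, fewer cells of a type and less RNA per cell cannot be told apart.

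In the contrasts that chose them, the members lay just under the limit or well below it. Their d ran from -1.59 to -0.71 in Nrde2KO (median -0.93), from -1.81 to -0.71 in Nrde2KO_noCHX (median -1.04) and from -1.59 to -0.71 in Ccdc174dTAG_noCHX (median -1.0). These values are fixed by the choice and are no finding. Chmp3, Flna and Lin28a sat just inside the selecting limit, with a largest d of -0.71 each. Ergic3 at -0.70, Nrp2 at -0.69 and Dctn1 at -0.69 sat just outside it. At the MtrexKO limit, Smarca4 at -0.69, Dlst at -0.68 and Usp43 at -0.68 were members, while Slc39a4 at -0.73 and Rabggta at -0.77 were not.

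The 8 members with the lowest mean of the 3 selecting values were Rundc3a, Fah, Pltp, Krt17, Bmp4, Ndst2, Ap1m2 and Oplah. Pltp, which carries phospholipids between lipoproteins, stood at 37.7 ± 5.10 normalised CPM (SD, n = 2) in Nrde2WT and at 12.5 ± 0.673 in Nrde2KO. Rundc3a stood at 18.5 ± 0.368 in Nrde2WT and at 5.86 ± 1.73 in Nrde2KO. In the other line it stood at 15.2 ± 1.33 in Ccdc174WT_noCHX and at 5.58 ± 0.307 in Ccdc174dTAG_noCHX. The spread between replicates was small beside these gaps, which the choice required. The controls of the lines differed for some members: Fah stood at 18.6 ± 0.895 in Nrde2WT and at 10.2 ± 1.12 in Ccdc174WT_noCHX, and Sptbn1 at 373 ± 0.436 and 712 ± 29.4. Ratios are therefore taken within each line.

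The members were not alike in MtrexKO, where the choice set a floor and no ceiling. On deposited CPM their d ran from -0.69 to 2.25 with a median of -0.21. Of the 77, 49 were below 0, beside 73.2% of the 11651 genes with at least 2 CPM. Above 0 were 28, of which 7 were above 1. Scaling moved this contrast: over the 11651 genes with at least 2 CPM the median was -0.45 on deposited CPM and -0.09 on normalised CPM. On normalised CPM the members ran from -0.34 to 2.62 with a median of 0.14, and 31 were below 0, beside 55.01% of those genes. The epithelial splicing regulator Esrp1 had the highest value: it stood at 1.13 and 1.03 in MtrexWT and at 9.19 and 6.67 in MtrexKO. Ap1m2, a subunit of the epithelial clathrin adaptor, stood at 12.8 and 13.3 in MtrexWT and at 45.7 and 64.4 in MtrexKO. For both genes, both MtrexKO libraries were above both MtrexWT libraries, and the rule sets no limit on that side. The summed trophectoderm markers, which include epithelial keratins, stood higher in the same libraries (84.2 and 117 in MtrexWT, 469 and 490 in MtrexKO), and their part in these values was not tested. At the other end, Usp43 was lowest on normalised CPM at -0.34. On deposited CPM the lowest was Smarca4, the ATPase of the BAF chromatin remodelling complex, at -0.69. Smarca4 stood at 274 and 247 normalised CPM in MtrexWT and at 219 and 199.6 in MtrexKO. Its MtrexKO values were below both controls.

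**Figure D1:**
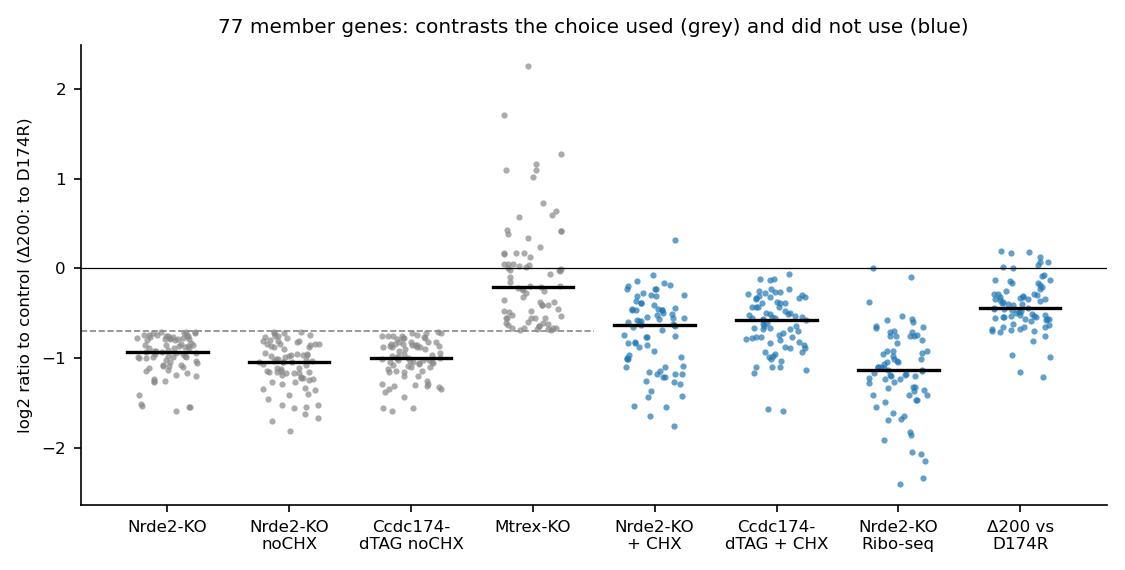
Log2 ratios of the 77 members in 8 contrasts, 1 point per member, with black bars at the medians. Grey points are the 4 contrasts used to choose the members, on deposited CPM with the limit of -0.7 dashed, and blue points are contrasts that were not used; the Ribo-seq points (74 members) have a median of -1.13.

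The CHX libraries had no part in the choice and were read first. In those labelled Nrde2KO_CHX, where Nrde2 RNA itself was not below its controls, 23 of 77 members were called lower than in Nrde2WT_CHX (adjusted p below 0.01 and log2 fold change below -1 in limma), beside 1.9% of the 15476 genes tested. At an adjusted p below 0.05, 71 of 77 were lower, beside 24.6% of genes tested. Among tested genes with at least 2 CPM in Nrde2WT, a level that members had to reach, 30.1% were lower and 1.87% were called. The median log2 fold change was -0.64 over the members and -0.02 over all genes tested, which left the median member at 64.4% of its control. The range ran from -1.76 for Fah to 0.31 for Lipg. No member was higher at an adjusted p below 0.05, or at an unadjusted p below 0.05, by limma, edgeR or DESeq2. The 2C-like markers moved with the same contrast, with 6 of 6 tested higher at an adjusted p below 0.05, and so did the naive marker sum given above, which was lower; their part in the members' changes was not tested.

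Depletion of CCDC174 under CHX gave a like measurement in another line. There 9 of 77 members were called lower in Ccdc174dTAG_CHX than in Ccdc174WT_CHX, beside 0.762% of genes tested, and 67 were lower at an adjusted p below 0.05, beside 12%. Among tested genes with at least 2 CPM in Nrde2WT, these shares were 0.507% and 13.9%. The median was -0.57 over the members and 0.01 over all genes, and the range ran from -1.59 for Cad to -0.07 for Dmwd. Of the 2C-like markers, 0 of 6 tested by limma passed in either direction, also at an unadjusted p below 0.05, and the same held with edgeR (6 tested) and DESeq2 (7 tested). Neuroectoderm markers did move with this contrast: 3 of 4 tested were lower at an adjusted p below 0.05 (median -0.88), their sum was 247 and 261 in Ccdc174WT_CHX and 160 and 157 in Ccdc174dTAG_CHX, and their part in the members' changes was not tested. The count of 9 rests on values near the limit. It was 5 without Ccdc174dTAG_CHX replicate 2 and 5 with a pseudocount of 1.

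Ribosome occupancy asked whether the members gave fewer ribosome-protected fragments. These levels are not divided by mRNA, and the members were chosen for low mRNA in the same line. They therefore cannot separate less mRNA from less translation of each mRNA. Of the 77 members, 74 passed the filter on low counts (Lipg, Esrp1 and Parp3 did not), and 46 of these were called lower in Ribo_Nrde2KO than in Ribo_Nrde2WT, beside 2.8% of the 13857 genes tested. At an adjusted p below 0.05, 69 were lower, beside 19.5% of genes tested. The median was -1.13 over the 74 members and 0.00 over all genes tested, which left the median member at 45.7% of its control. The range ran from -2.41 for Oplah to -0.00 for Grhl3. On deposited CPM the median of all genes in this contrast was 0.15, and that of the members was -0.98. In the same libraries the naive marker sum was lower and the fibroblast or feeder sum higher, as given above. Of 3 fibroblast or feeder markers tested, 1 was higher at an adjusted p below 0.05, and Col1a1 had the highest log2 fold change at 2.46. Of 5 primitive endoderm markers tested 4 were higher and 1, the most abundant (Lama1), lower at an adjusted p below 0.05. The summed primitive endoderm level was 391 and 408 in Ribo_Nrde2WT and 338 and 363 in Ribo_Nrde2KO. The part of these markers in the members' changes was not tested. No member was higher by limma, edgeR or DESeq2, at an adjusted or an unadjusted p below 0.05.

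Of the 74 members tested in all 3 contrasts, 60 were lower in each at an adjusted p below 0.05 (81.1%), beside 5.88% of the 12800 genes tested in all 3. At the stricter limit, 6 were called lower in all 3 (8.11%, beside 0.25%): Naprt, Cad, Krt17, Ap1m2, Ddx58 and Agrn. In both CHX contrasts 65 of 77 were lower at an adjusted p below 0.05 (84.4%, beside 8.21% of the 15476 genes tested), and 4 of 77 were lower in neither (5.19%, beside 71.6%). These 4 were Lipg, Eogt, Dmwd and Parp3. These are other libraries of the same edited lines, so they do not test another clone.

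The counts for this and the next functional groups stand beside the shares over all genes tested. In Nrde2KO_CHX 24.6% of genes were lower at an adjusted p below 0.05 and 1.9% were called, beside 71 and 23 of 77 members. In Ccdc174dTAG_CHX these were 12% and 0.762% of genes, beside 67 and 9 of 77 members. In Ribo-seq they were 19.5% and 2.8%, beside 69 and 46 of 74 members. All 11 cytoskeletal members were lower in Nrde2KO_CHX at an adjusted p below 0.05, with 5 called and a median of -0.97. In Ccdc174dTAG_CHX 10 of 11 were lower (1 called, median -0.65), and in Ribo-seq 9 of 11 (8 called, median -1.18). Flna (ENSMUSG00000031328, chrX:74223461-74249820, minus strand) encodes filamin A, which crosslinks actin filaments. It stood at 610.2 and 659.8 normalised CPM in Nrde2WT_CHX and at 308 and 320.3 in Nrde2KO_CHX, a log2 difference of -1.01 (SE 0.0489, adjusted p = 3.8e-07). In Ribo-seq it stood at 131 and 143 in Ribo_Nrde2WT and at 54.6 and 48.1 in Ribo_Nrde2KO, a change of -1.41 (SE 0.0885, adjusted p = 5e-10). Both libraries labelled Nrde2KO were below both controls in each assay. Sptbn1, a beta-spectrin of the membrane skeleton, stood at 642 and 649 in Ccdc174WT_CHX and at 379.6 and 379.7 in Ccdc174dTAG_CHX, a change of -0.77 (SE 0.0603, adjusted p = 2.82e-05). In Ribo-seq it stood at 39.2 and 39.6 in Ribo_Nrde2WT and at 38.0 and 35.6 in Ribo_Nrde2KO, a log2 difference of -0.10 (SE 0.0988, adjusted p = 0.464). Both Ccdc174dTAG_CHX libraries were below their controls, and so were both Ribo_Nrde2KO libraries, but the Ribo-seq value did not pass the test. Krt17, a keratin of intermediate filaments, stood at 8.09 and 7.69 in Nrde2WT_CHX and at 2.16 and 2.56 in Nrde2KO_CHX, a change of -1.65 (SE 0.145, adjusted p = 1.35e-05). It stood at 2.34 and 3.19 in Ribo_Nrde2WT and at 0.537 and 0.648 in Ribo_Nrde2KO. Its levels were low throughout, yet the groups did not overlap. The motor protein Myo1c stood at 104 and 113 in Ribo_Nrde2WT and at 39.8 and 38.5 in Ribo_Nrde2KO. The dynactin subunit Dctn2 stood at 179 and 169.9 in Nrde2WT_CHX and at 98.0 and 98.3 in Nrde2KO_CHX. For both genes the libraries labelled Nrde2KO were below both controls.

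Members of adhesion, cell junctions and epithelial identity (12 genes) had a median log2 ratio of 0.84 in MtrexKO on normalised CPM, beside 0.14 over all members and -0.09 over the 11651 genes with at least 2 CPM. The choice used this contrast and the groups were formed after values were seen, so this is a description. It was measured in the libraries where the trophectoderm marker sum went from 84.2 and 117 to 469 and 490. In Nrde2KO_CHX 11 of 12 were lower at an adjusted p below 0.05 (6 called, median -0.96), and in Ccdc174dTAG_CHX also 11 of 12 (2 called, median -0.71). Of 11 tested in Ribo-seq, 10 were lower (5 called, median -0.93). Agrn, the proteoglycan agrin of basement membranes, stood at 154 and 153 in Nrde2WT_CHX and at 69.6 and 68.8 in Nrde2KO_CHX, a change of -1.15 (SE 0.0542, adjusted p = 3.75e-07). In the other line it stood at 132 and 123 in Ccdc174WT_CHX and at 65.7 and 60.9 in Ccdc174dTAG_CHX, a change of -1.01 (SE 0.0542, adjusted p = 2.6e-06). In both lines the libraries labelled knockout or depleted were below both controls. Ptprf, a receptor tyrosine phosphatase at cell contacts, stood at 265 and 275 in Ribo_Nrde2WT and at 187 and 178 in Ribo_Nrde2KO, a change of -0.56 (SE 0.0741, adjusted p = 6.15e-06). Ap1m2 stood at 16.1 and 10.8 in Nrde2WT_CHX and at 5.73 and 4.32 in Nrde2KO_CHX, a change of -1.36 (SE 0.188, adjusted p = 0.000242). Its occupancy was 4.55 and 3.72 in Ribo_Nrde2WT and 0.895 and 1.68 in Ribo_Nrde2KO, below its controls in both knockout libraries. Grhl3, a transcription factor of surface epithelia, stood at 13.0 and 17.0 in Ribo_Nrde2WT and at 14.3 and 15.4 in Ribo_Nrde2KO, and these groups overlapped.

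Members that act on RNA, ribosomes and translation (9 genes) had the lowest Ribo-seq median of the functional groups. All 9 were lower there at an adjusted p below 0.05, with 8 called and a median of -1.36. With CHX 8 of 9 were lower in Nrde2KO_CHX (1 called, median -0.63) and 8 of 9 in Ccdc174dTAG_CHX (median -0.43). Lin28a, an RNA-binding protein of pluripotent cells, stood at 65.8 and 60.5 in Ribo_Nrde2WT and at 12.7 and 11.8 in Ribo_Nrde2KO, a change of -2.34 (SE 0.111, adjusted p = 1.11e-11). With CHX it stood at 133 and 159.5 in Nrde2WT_CHX and at 93.5 and 90.8 in Nrde2KO_CHX, a change of -0.66 (SE 0.169, adjusted p = 0.00939). Both assays put both libraries labelled Nrde2KO below both controls, and whether the changes differ between the assays was not tested. Gcn1l1, a ribosome-binding sensor of stalled translation, stood at 195 and 200.3 in Nrde2WT_CHX and at 90.6 and 86.8 in Nrde2KO_CHX, a change of -1.16 (SE 0.0538, adjusted p = 3.75e-07). Ribosome occupancy was 222 and 245 in Ribo_Nrde2WT and 71.6 and 57.1 in Ribo_Nrde2KO, a change of -1.86 (SE 0.0957, adjusted p = 3.63e-11). The called member of this group under CHX was Gcn1l1. Dhx16, a helicase of the spliceosome, stood at 201 and 195 in Nrde2WT_CHX and at 189.6 and 164 in Nrde2KO_CHX, a log2 difference of -0.17 (SE 0.0636, adjusted p = 0.0545) that missed 0.05. In Ccdc174WT_CHX it stood at 182 and 188 and in Ccdc174dTAG_CHX at 126 and 122, a change of -0.57 (SE 0.0636, adjusted p = 0.000247). Ddx56, Sdad1, Wdr46 and Kri1, which take part in ribosome biogenesis, had Ribo-seq changes of -1.50, -1.14, -1.10 and -1.41.

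The metabolic members (11 genes) held the member with the lowest CHX value in each line. In Nrde2KO_CHX 10 of 11 were lower at an adjusted p below 0.05 (4 called, median -0.82), and in Ccdc174dTAG_CHX 10 of 11 (3 called, median -0.93). Of 10 tested in Ribo-seq, 9 were lower (8 called, median -1.21). Cad (ENSMUSG00000013629, chr5:31054780-31078479, plus strand) encodes the multifunctional enzyme that starts pyrimidine synthesis. It stood at 326 and 338 in Nrde2WT_CHX and at 125 and 120.3 in Nrde2KO_CHX, a change of -1.43 (SE 0.0497, adjusted p = 1.43e-07). It stood at 307 and 324 in Ccdc174WT_CHX and at 107 and 102 in Ccdc174dTAG_CHX, a change of -1.59 (SE 0.0497, adjusted p = 9.89e-08). Its Ribo-seq levels were 483 and 569 in Ribo_Nrde2WT and 140.4 and 137 in Ribo_Nrde2KO, a change of -1.91 (SE 0.0821, adjusted p = 3.99e-12). Every library labelled knockout or depleted was below every control of its set. Fah and Gstz1 act in the breakdown of tyrosine. Fah stood at 17.6 and 15.2 in Nrde2WT_CHX and at 5.08 and 4.27 in Nrde2KO_CHX, a change of -1.76 (SE 0.135, adjusted p = 5.59e-06). Its Ribo-seq levels were 5.20 and 5.18 in Ribo_Nrde2WT and 3.58 and 3.11 in Ribo_Nrde2KO, a log2 difference of -0.60 (SE 0.252, adjusted p = 0.0696) that did not pass 0.05. Gstz1 changed by -0.82 in Nrde2KO_CHX. Ogdhl stood at 139 and 156 in Ccdc174WT_CHX and at 74.4 and 77.4 in Ccdc174dTAG_CHX, a change of -0.95 (SE 0.0586, adjusted p = 7.19e-06). Pltp stood at 82.4 and 93.1 in Ribo_Nrde2WT and at 36.9 and 38.1 in Ribo_Nrde2KO, a change of -1.22 (SE 0.0925, adjusted p = 6.71e-09). For Ogdhl and Pltp the depleted libraries were below both controls. Oplah, the oxoprolinase of glutathione turnover, stood at 6.11 and 7.44 in Ribo_Nrde2WT and at 1.25 and 0.907 in Ribo_Nrde2KO, a change of -2.41 (SE 0.306, adjusted p = 4.2e-06). Naprt, which makes a precursor of NAD from nicotinic acid, stood at 9.88 and 8.74 in Nrde2WT_CHX and at 2.73 and 3.32 in Nrde2KO_CHX, a change of -1.55 (SE 0.148, adjusted p = 2.27e-05). Its interval overlaps Eef1d on the same strand, so some reads could belong to either gene. Lipg, a lipase, stood at 10.7 and 6.99 in Nrde2WT_CHX and 12.4 and 9.43 in Nrde2KO_CHX, groups that overlapped.

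Of the 4 members of the ubiquitin system, all were lower in Nrde2KO_CHX and in Ribo-seq at an adjusted p below 0.05, and 3 of 4 in Ccdc174dTAG_CHX. Otub1, a deubiquitinase, stood at 69.7 and 72.6 in Ribo_Nrde2WT and at 34.2 and 34.5 in Ribo_Nrde2KO, a change of -1.04 (SE 0.0914, adjusted p = 4.21e-08). With CHX the change was -0.38 (SE 0.0580, adjusted p = 0.000433). The groups did not overlap in either assay.

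Members of vesicle traffic, lysosomes and nuclear import (9 genes) spanned a narrow range under CHX. All 9 were lower in both CHX contrasts at an adjusted p below 0.05, with changes from -0.56 to -0.20 in Nrde2KO_CHX and from -0.61 to -0.27 in Ccdc174dTAG_CHX. In Ribo-seq all 9 were lower and 5 were called (median -1.10). Ipo4, an importin, stood at 76.2 and 85.1 in Ribo_Nrde2WT and at 17.4 and 20.6 in Ribo_Nrde2KO, a change of -2.07 (SE 0.108, adjusted p = 3.9e-11). With CHX it stood at 45.0 and 59.7 in Nrde2WT_CHX and at 37.5 and 37.3 in Nrde2KO_CHX, a change of -0.47 (SE 0.130, adjusted p = 0.0138). In both assays the 2 libraries labelled Nrde2KO were below both controls. Chmp3, a subunit of the ESCRT membrane-scission complex, stood at 105 and 100.2 in Nrde2WT_CHX and at 90.8 and 87.4 in Nrde2KO_CHX, a change of -0.20 (SE 0.0481, adjusted p = 0.00632).

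Glycosylation and GPI anchoring were represented by 4 genes, of which 3 were lower in Nrde2KO_CHX (1 called), 2 in Ccdc174dTAG_CHX and 4 in Ribo-seq (1 called) at an adjusted p below 0.05. Ndst2, a heparan sulphate modifying enzyme, stood at 13.0 and 11.2 in Nrde2WT_CHX and at 3.92 and 4.08 in Nrde2KO_CHX, a change of -1.54 (SE 0.131, adjusted p = 1.12e-05). In the other line it stood at 6.37 and 5.64 in Ccdc174WT_CHX and at 3.63 and 3.73 in Ccdc174dTAG_CHX, a change of -0.67 (SE 0.131, adjusted p = 0.00583). The control levels of Ndst2 differed between the lines. Gpaa1, a subunit of the GPI transamidase, stood at 64.3 and 63.0 in Ribo_Nrde2WT and at 20.6 and 18.4 in Ribo_Nrde2KO, a change of -1.70 (SE 0.103, adjusted p = 3.26e-10).

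Chromatin, signalling and innate sensing (8 genes) had 7 of 8 lower in Nrde2KO_CHX (2 called, median -0.58), 6 of 8 in Ccdc174dTAG_CHX (1 called, median -0.66) and 7 of 7 tested in Ribo-seq (5 called, median -1.13) at an adjusted p below 0.05. Smarca4 stood at 155 and 169 in Ribo_Nrde2WT and at 86.1 and 84.1 in Ribo_Nrde2KO, a change of -0.92 (SE 0.0799, adjusted p = 3.59e-08). Ddx58, the cytosolic RNA sensor RIG-I, stood at 36.6 and 52.5 in Nrde2WT_CHX and at 16.5 and 21.3 in Nrde2KO_CHX, a change of -1.21 (SE 0.186, adjusted p = 0.00047). Its controls differed from each other more than the Nrde2KO_CHX libraries did, but the groups did not overlap. Bmp4, a secreted ligand of the TGF-beta family, stood at 10.8 and 15.0 in Nrde2WT_CHX and at 7.49 and 7.31 in Nrde2KO_CHX, a change of -0.77 (SE 0.180, adjusted p = 0.00596). The remaining 9 members, with other or less well described roles, were lower for 8 of 9 in each of the 3 contrasts at an adjusted p below 0.05, with 4 called in Nrde2KO_CHX, 2 in Ccdc174dTAG_CHX and 3 in Ribo-seq. Rundc3a, which had the lowest mean of the 3 selecting values, changed by -0.99, -0.80 and -1.61 in them.

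**Figure D2:**
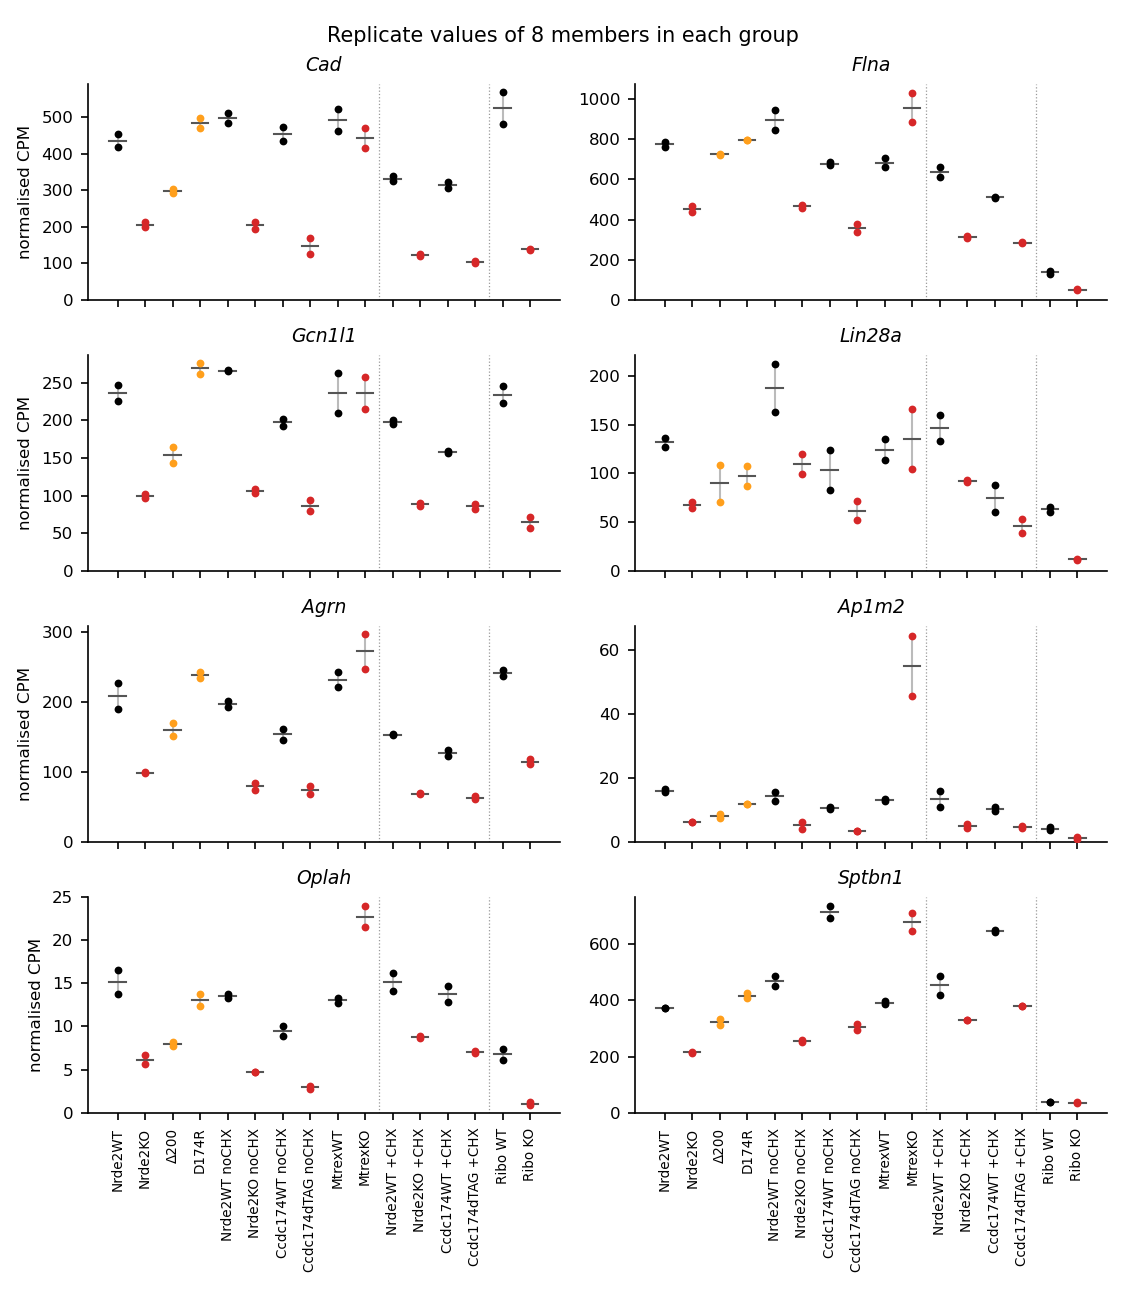
Normalised CPM of 8 members in each replicate of 16 groups, with black points for controls, orange for the NRDE2 variants, red for libraries labelled knockout or depleted, bars at the group means, vertical lines over the range, and dotted lines between the untreated, CHX and Ribo-seq sets, which were scaled apart. For Cad, both Nrde2KO_CHX libraries (125 and 120) lie below both Nrde2WT_CHX libraries, while for Sptbn1 the Ribo-seq groups lie close together.

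The change in the libraries labelled Nrde2KO_CHX and the change in Ccdc174dTAG_CHX were compared by their difference, fitted over the same 8 libraries. At an adjusted p below 0.05, the Nrde2KO_CHX effect was lower for 8 of 77 members, beside 9.87% of genes tested, and higher for 4, beside 6.27%. Both shares were near the background. The median difference was -0.11 over the members and -0.03 over all genes.

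The variants of NRDE2 were compared for these genes without CHX. The study places MTREX binding within the stretch that Nrde2d200 lacks, so the variants do not separate the N-terminal part from the MTREX contact. It also reports less NRDE2 protein in Nrde2D174R than in wild type, and a level like that of wild type in Nrde2d200. On normalised CPM the members' median log2 ratio to Nrde2WT was -0.50 in Nrde2d200 (77 of 77 below 0, beside 55.59% of the 11651 genes with at least 2 CPM) and -0.10 in Nrde2D174R (54 of 77 below 0, beside 54.37%). On deposited CPM 74 and 63 of 77 were below 0, beside 48.59% and 66.17% of those genes. The lowest Nrde2D174R values were those of Crmp1 (-1.03) and Fah (-1.01), and the highest that of Myo18a (0.24). Both ratios share the Nrde2WT libraries that chose the members, so they are given as values alone. Compared with each other, Nrde2d200 was called lower than Nrde2D174R for 2 of 77 members, beside 0.732% of 14889 genes tested. At an adjusted p below 0.05, 38 were lower, beside 5.83%, with a median of -0.44 over the members and -0.00 over all genes. Among tested genes with at least 2 CPM in Nrde2WT, 7.05% were lower and 0.772% were called. No member was higher by limma, edgeR or DESeq2, at an adjusted or an unadjusted p below 0.05. The called members were Adam23, a cell adhesion protein of the ADAM family, and Ctnnal1, a relative of alpha-catenin. Adam23 stood at 23.1 and 31.5 in Nrde2D174R and at 12.8 and 10.3 in Nrde2d200, a change of -1.22 (SE 0.200, adjusted p = 0.000843). Ctnnal1 stood at 38.3 and 31.6 in Nrde2D174R and at 16.5 and 14.6 in Nrde2d200, a change of -1.15 (SE 0.135, adjusted p = 4.04e-05). Both Nrde2d200 libraries were below both Nrde2D174R libraries for each gene. Members that act on RNA, ribosomes and translation had 6 of 9 lower at an adjusted p below 0.05 (median -0.52), adhesion and epithelial members 7 of 12 (median -0.55), vesicle traffic 6 of 9 (median -0.34), and cytoskeletal members 5 of 11 (median -0.34). Metabolic members had 5 of 11 (median -0.46), and chromatin and signalling members 2 of 8 (median -0.43). Cad stood at 498 and 471 in Nrde2D174R and at 292 and 303 in Nrde2d200, a change of -0.70 (SE 0.115, adjusted p = 0.00084), while Flna had a log2 difference of -0.13 (SE 0.0902, adjusted p = 0.39). Nrde2d200 and Nrde2D174R each stand for a single edited line. The count of 38 was 15 without Nrde2D174R replicate 1, 19 without Nrde2d200 replicate 1, 23 without Nrde2d200 replicate 2 and 18 on deposited CPM, where the median of all genes was 0.11. The count of 2 was 1 without Nrde2D174R replicate 2 and 1 without Nrde2d200 replicate 2. The 2C-like markers summed to 1.81 and 3.36 in Nrde2D174R and to 14.7 and 19.6 in Nrde2d200, with Zscan4d the most abundant. Of these markers, 5 of 8 tested were higher at an adjusted p below 0.05. The primitive streak and mesoderm sum was also higher in Nrde2d200 (19.5 and 23.7, beside 14.4 and 15.9 in Nrde2D174R), where Kdr was the most abundant (9.33 and 13.1). Of 5 markers of this list tested, 1 was higher at an adjusted p below 0.05. Their median log2 difference was -0.17, and the highest was that of Kdr at 1.62. The naive marker sum was lower (5190 and 5500, beside 5810 and 6040), and so was the neuroectoderm sum (53.8 and 49.3, beside 83.6 and 75.4). The part of these markers in the members' values was not tested.

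The response to CHX itself is given as values, since each line's untreated libraries chose the members. With all 28 RNA-seq libraries scaled together, the median log2 ratio of CHX to no CHX was -0.20 in the Nrde2WT line and 0.24 in Nrde2KO. Above 0 were 25 of 77 members in Nrde2WT (beside 45.0% of the 11651 genes with at least 2 CPM) and 51 in Nrde2KO (beside 47.2%). In the Ccdc174 line the median was -0.20 in the wild type (22 above 0, beside 43.2%) and 0.19 after dTAG-13 (51 above 0, beside 44.9%). The sign in the wild types rests on the scaling. On deposited CPM the medians were 0.00 in Nrde2WT (39 above 0, beside 61.0% of genes) and 0.42 in Nrde2KO (58, beside 59.8%). They were 0.03 in the Ccdc174 wild type (39, beside 60.6%) and 0.42 after dTAG-13 (62, beside 61.8%). Over the 11651 genes with at least 2 CPM, the median moved from -0.07 to 0.14 in Nrde2WT and from -0.10 to 0.13 in the Ccdc174 wild type. It moved from -0.04 to 0.13 in Nrde2KO and from -0.07 to 0.16 after dTAG-13. Nrde2 RNA in the libraries labelled Nrde2KO_CHX was not below its controls. On either scale the cells labelled Nrde2KO and those given dTAG-13 had a higher median than their wild types. The choice took members for low untreated levels in the depleted cells, so this order is not independent of it. Single members differed widely. The ratio of Lipg was 2.13 in Nrde2WT, 3.47 in Nrde2KO, 2.47 in the Ccdc174 wild type and 2.88 after dTAG-13. Cad had ratios of -0.81, -0.93, -0.73 and -0.70 in that order. Lipg was thus higher and Cad lower with CHX in each background. Kri1, of ribosome biogenesis, had 0.41 in Nrde2WT and 1.39 in Nrde2KO, and 0.36 and 1.22 in the Ccdc174 line.

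The members carried more introns than other genes. Their median was 14 introns, beside 7 over the 14873 genes tested without CHX that the annotation holds and 8 over the 11077 coding genes with at least 2 CPM. The exons were richer in G and C (median 55.6%, beside 50.3% and 50.6%), and the introns were shorter, with a median length of 642 bases beside 1491 and 1481. The 5' splice sites were read as 3 exonic and 6 intronic bases from the longest coding transcript of each gene. Each site got a log2-odds score from the base frequencies of all 250180 annotated sites. The weakest site of a member had a median score of 3.77, beside 4.84 for all genes tested, and genes with more introns have more chances of a low score. Site by site, 19.9% of the members' 1516 sites had at most 5 of the 9 bases that pair with U1, beside 16.6% of 140560 sites. A site with at most 4 such bases occurred in 21 of 77 members (27.3%), beside 15.9% of genes with sites. Other measures went the opposite way: G was lacking at the fifth intronic base in 17.2% of the members' sites beside 20.6%, and at the last exonic base in 14.1% beside 18.8%. The median over genes of the fewest paired bases was 5 for members and 5 for all genes. Intron beginnings that read GTATCC or ATATCC, as many introns of the minor spliceosome do, made up 6 of 1516 sites (0.396%), beside 0.494%, and occurred in 6 members (7.79%, beside 4.77% of genes with sites): Myo7a, Gpaa1, Ipo4, Ap1m2, Sri and Esrp1.

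The 6 members with the lowest site score are shown with that site, because these sites have the lowest log2-odds in the members' longest coding transcripts. Over all annotated transcripts other members had lower scores, among them Ctnnal1 at -16.87 and Adgrb1 at -8.04. Myo7a is a motor protein of sensory cells, Dlst is a subunit of the oxoglutarate dehydrogenase complex, Ogdhl is related to another of its subunits, and Gpaa1, Ipo4 and Ap1m2 are named above. Capitals mark the 3 exonic and 6 intronic bases of the site, coordinates are GRCm38, and each is read 5' to 3' on the strand of the gene. They lie at chr7:98063572-98063600, minus strand (Myo7a, intron 38), chr15:76333605-76333633, plus strand (Gpaa1, intron 8), chr14:32332293-32332321, plus strand (Ogdhl, intron 5), chr12:85118402-85118430, plus strand (Dlst, intron 4), chr14:55627769-55627797, minus strand (Ipo4, intron 26) and chr9:21309620-21309648, minus strand (Ap1m2, intron 2). Scores run from -4.16 for Myo7a through -2.76, -2.46, -2.20 and -1.22 to -0.92 for Ap1m2.
Myo7a: atggcctttgTAGATATCCacaaccgcag
Gpaa1: ccttggactcAAGATATCCtccaccctcg
Ogdhl: gggatccttcCCTGTCACCctggtggccc
Dlst: acggctgtgtGCAGTTAAGtacctgattt
Ipo4: gccctgctcaGGAGTATCCtatgcctgca
Ap1m2: agcaacctctACTGTATCCaccccatgct

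For comparison, the start of U1 snRNA (Rnu1b1) lies at chr3:96360098-96360117 on the minus strand. Capitals mark its bases 3 to 11, taken here as those that pair with a 5' splice site, whose complement is CAGGTAAGT. The introns of Myo7a, Gpaa1, Ipo4 and Ap1m2 shown above begin with the ATATCC or GTATCC found in many introns of the minor spliceosome. Whether U1 pairs with them was not tested. The scores come from base frequencies of all annotated sites and do not measure pairing with U1.
U1 snRNA (Rnu1b1): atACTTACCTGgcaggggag

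The weakest sites of 5 members with high CPM or large Ribo-seq changes are shown next, since their values carry much of the account above. They lie at chrX:74230490-74230518, minus strand (Flna), chr5:31077684-31077712, plus strand (Cad), chr11:30143003-30143031, minus strand (Sptbn1), chr4:134018695-134018723, minus strand (Lin28a) and chr15:76306959-76306987, minus strand (Oplah), in GRCm38. Capitals again mark the 9 bases of the site, and the scores are 4.72, 3.41, 1.07, 4.23 and 2.03 in that order. The Lin28a transcript has 3 introns and that of Oplah has 26.
Flna: cttccaagttACAGTGAGAagaggccaag
Cad: ggaatatgaaGCTGTGAGCacaaggcctg
Sptbn1: tcttgtgtctCAGGTTCTGtctgaattac
Lin28a: cagcagtttgCAGGTTCGAgcttgcgatt
Oplah: atctctaatcCAAGTACTGgctttccatc

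Genes of the machinery around NRDE2 were counted in the same contrasts. Over all genes tested, 24.6% were lower and 18.1% higher in Nrde2KO_CHX at an adjusted p below 0.05, 12% and 9.12% in Ccdc174dTAG_CHX, 19.5% and 16.9% in Ribo-seq, and 5.83% and 4.51% between the variants, and the counts here and in the next paragraph stand beside these shares. Of 18 U1 snRNP and U1-associated genes, 9 were lower and 2 higher in Nrde2KO_CHX at an adjusted p below 0.05, with a median of -0.16. In Ccdc174dTAG_CHX 1 was lower (median 0.02), in Ribo-seq 7 were lower and 1 higher (median -0.14), and in Nrde2d200 against Nrde2D174R 1 was lower and 2 higher (median -0.04). Of 11 NRDE2-linked factors, 1 was lower and 1 higher in Nrde2KO_CHX, 2 were higher in Ccdc174dTAG_CHX, 6 were lower in Ribo-seq with Nrde2 itself the lowest at -2.16, and 1 was lower and 1 higher between the variants. Of 14 nonsense-mediated decay factors, 3 were lower and 4 higher in Nrde2KO_CHX, 2 and 4 in Ccdc174dTAG_CHX and 2 and 3 in Ribo-seq, and 1 was lower between the variants. Smg5, a decay factor whose own mRNA is a target of the pathway, had the lowest value of them in Nrde2KO_CHX at -0.71. Of 10 RNAs known to be sensitive to nonsense-mediated decay, 1 was lower and 3 higher in Nrde2KO_CHX (median 0.04), 1 and 7 in Ccdc174dTAG_CHX (median 0.36), and 1 was higher in Ribo-seq (median 0.10). The host gene Snhg12 had the highest value in Ccdc174dTAG_CHX at 0.76. Tti1, Cdk2 and Dnmt1, which the study picked as NRDE2 targets from these data and which the choice of members leaves out, were lower in all 4 contrasts at an adjusted p below 0.05, so they are no independent evidence. Their medians were -0.73, -0.49, -1.03 and -0.48 in Nrde2KO_CHX, Ccdc174dTAG_CHX, Ribo-seq and the variants.

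Other lineage markers were described over the same contrasts. Of the naive markers, 4 of 10 were lower and 1 higher in Nrde2KO_CHX, 2 and 1 in Ccdc174dTAG_CHX, 4 and 2 in Ribo-seq, and 1 was lower between the variants, at an adjusted p below 0.05. Of the primitive endoderm markers, 3 of 7 were higher and 2 lower in Nrde2KO_CHX, 1 and 1 of 7 in Ccdc174dTAG_CHX, 4 and 1 of 5 in Ribo-seq, and 1 of 6 was higher between the variants. Of the trophectoderm markers, 2 of 6 were higher and 3 lower in Nrde2KO_CHX, 2 of 6 were lower in Ccdc174dTAG_CHX, and 1 of 6 was higher and 2 lower in Ribo-seq. Primitive streak and mesoderm gave 1 of 4 higher and 1 lower in Nrde2KO_CHX, 1 of 5 higher in Ribo-seq and 1 of 5 higher between the variants. Neuroectoderm gave 2 of 4 lower in Nrde2KO_CHX, 3 of 4 lower in Ccdc174dTAG_CHX and 1 of 2 lower between the variants, and of the fibroblast or feeder markers 1 of 3 was higher in Ribo-seq. Their part in the members' levels was not tested.

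Counting was by gene and strand. The intervals of 4 members overlap a coding gene on the same strand: Ipo4 with Gm49378, Jak3 with Insl3, Uckl1 with Zfp512b and Naprt with Eef1d. In all, 16 members overlap some gene on the same strand, so reads in the shared stretches could belong to either.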

How the data were processed

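The authors deposited CPM per gene for 28 RNA-seq and 4 Ribo-seq libraries, 1 column per replicate; per the submitters' processing notes reads were aligned with STAR 2.7.3a. All CPM values (100%) were whole numbers of reads over a library total within a tolerance of 0.1, and reads in genes gave the depths above. CPM were divided by median-of-ratios factors, separately for the 20 untreated, 8 CHX and 4 Ribo-seq libraries; ratios of CHX to no CHX used factors from all 28 RNA-seq libraries. Genes that averaged 0.5 CPM or more over the libraries of a fit were modelled as log2(normalised CPM + 0.25) with limma 3.58.1 (lmFit and eBayes with trend, R 4.3.3), and p-values were adjusted by Benjamini-Hochberg over all genes tested. The untreated fit shared its spread over 20 libraries. A gene was called where its change passed 1 on the log2 scale with an adjusted p below 0.01. On the recovered reads, edgeR 4.0.16 called 855, 185, 951 and 210 genes and DESeq2 1.42.0 called 781, 155, 563 and 254 in both directions (Nrde2KO_CHX, Ccdc174dTAG_CHX, Ribo-seq, Nrde2d200 against Nrde2D174R), beside 720, 151, 890 and 204 with limma.

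The series design speaks of 2 independent replicates per group, so the p-values measure the spread between cultures of a line, not between lines. Whether replicates of the same number pair was checked by the correlation across genes of their differences, which were 0.30, 0.49, -0.01 and 0.27 in the 4 contrasts. MtrexKO and Ccdc174dTAG_noCHX replicates stood apart, with a spread over counting noise (chi-square per degree of freedom) of 115 and 50.0.

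Members and lists were chosen with earlier results of these data known. Named genes were the 12 members with the highest Nrde2WT mean CPM, the 8 with the lowest mean selecting d, up to 10 called in all 3 contrasts, up to 6 least changed, those next to the limits and the 6 with the weakest 5' splice site, with others named for a known role; some items that the rule would name are not reported here. The functional groups, the difference of CHX effects, the search for GTATCC and ATATCC, the comparison of sequences for Flna, Cad, Sptbn1, Lin28a and Oplah, and the plotted genes were chosen after values were seen. Lists were markers of naive mESCs, 2C-like cells, primitive endoderm, trophectoderm, primitive streak and mesoderm, neuroectoderm and fibroblast or feeder cells, NRDE2-linked factors, U1 snRNP proteins, nonsense-mediated decay factors, decay-sensitive RNAs and study-named targets. Introns and symbols came from GENCODE M21 (55154 of 55335 identifiers matched; 181 did not), sequences from GRCm38, and the U1 position from RefSeq. Scripts used Python 3.11.15, pandas 2.3.3, numpy 2.4.6, pysam 0.24.0 and matplotlib 3.10.9.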

Additional observations from a re-analysis of the deposited data

Results flagged for a closer look

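For 12 members the change in Nrde2KO_CHX differed from the change in Ccdc174dTAG_CHX by the fitted test of the difference (adjusted p below 0.05), with 8 lower, beside 9.87% of genes tested, and 4 higher, beside 6.27%. Both counts are near the shares over all genes tested. The difference is given on the log2 scale, Nrde2KO_CHX effect minus Ccdc174dTAG_CHX effect. For Ndst2, which modifies heparan sulphate, it was -0.87. For Lsr, a lipoprotein receptor of tricellular junctions, it was -0.55, and for the septin Sept1 it was -0.54. Jmjd8 gave -0.51 and the myosins Myo18a and Myo1c gave -0.47 and -0.36. Zc3h7b and Gcn1l1 gave -0.28 each. The differences above 0 were 0.27 for Chmp3, 0.30 for Sgsm3, 0.31 for Sptbn1 and 0.41 for Dhx16. All 12 were lower than their controls in both libraries labelled Nrde2KO_CHX and in both Ccdc174dTAG_CHX libraries.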

How the results depend on the processing

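In the 4 tested contrasts, the direction of the median log2 change was kept under all alternatives run: other tools and size factors, deposited CPM, pseudocounts, filters, the replicate block and leaving out each library. The MtrexKO median turned from -0.21 on deposited CPM to 0.14 on normalised CPM. The median ratio of CHX to no CHX turned from -0.20 in both wild types to 0.0034 (Nrde2WT) and 0.0298 (Ccdc174 line) on deposited CPM, and to 0.0135 and 0.0037 with untreated and CHX libraries scaled apart, and rose from 0.24 to 0.42 and 0.43 in Nrde2KO and from 0.19 to 0.42 and 0.39 after dTAG-13; both scalings were chosen after seeing the data.

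The number of members was 19 with d below -1, 175 with d below -0.5, 135 on normalised CPM (76 of the 77 shared), 202 with no MtrexKO condition, 80 with no minimum CPM, and between 60 (without MtrexKO replicate 2) and 95 (without MtrexKO replicate 1) when a library was left out; the rule's construction sets these counts.

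Counts called lower: with the -1 rule they were 10 in Nrde2KO_CHX, 5 in Ccdc174dTAG_CHX, 16 in Ribo-seq and 0 between the variants, as fewer genes were members, and on normalised CPM 15, 80 and 5 in the last 3, as more were. Ccdc174dTAG_CHX gave 5 with a pseudocount of 1 and between 5 (without Ccdc174dTAG_CHX replicate 2) and 10 with a library left out. The variants gave 4 with DESeq2, 4 with a pseudocount of 0.1 and between 1 and 3 with a library left out (1 without Nrde2D174R replicate 2, 1 without Nrde2d200 replicate 2). Nrde2KO_CHX gave between 20 and 22 and Ribo-seq between 40 and 47 with a library left out. The cause was not tested.

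Medians, in the order Nrde2KO_CHX, Ccdc174dTAG_CHX, Ribo-seq and variants: on deposited CPM -0.59, -0.54, -0.98 and -0.33; with the -1 rule -1.15, -0.88, -1.30 and -0.52. With a pseudocount of 1, Nrde2KO_CHX gave -0.62, Ribo-seq -1.08 and the variants -0.40. Members on normalised CPM gave -0.65 in Nrde2KO_CHX and -0.41 between the variants. With a library left out the medians lay between -0.70 and -0.58, -0.60 and -0.55, -1.17 and -1.12, and -0.45 and -0.40. The cause was not tested.

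The weakest-site score of members minus that of all genes was -1.07. It was 0 by paired bases, -1.37 over all transcripts and -0.92 over sites that start with GT, the last chosen after seeing the data, as was leaving out libraries for the number of members.

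With replicate number as a block (the pairing), 22, 9, 46 and 2 members were called lower. Using only the compared groups' libraries for Ribo-seq is the fit itself and was not run again. Where a library was left out, the lone replicate was assumed to vary like the other groups.

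Each group has 2 libraries of a line, so clones cannot be told apart. Lipg, Esrp1 and Parp3 fell below the minimum mean CPM of the Ribo-seq fit, so limma and edgeR did not test them. DESeq2, which had its own filter on reads, tested 76 members in Ribo-seq. Reads that map to several near-identical Zscan4 copies are not in uniquely mapped counts. Counts per gene do not separate spliced from unspliced RNA, so intron use was not measured. The 5' splice sites describe the annotation, not use in these cells.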
